A study of Mus musculus with 4 samples.

Results

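The 10 genes described here serve antigen presentation by MHC class II in the mouse. They are the transactivator *Ciita*, the invariant chain *Cd74*, the classical chains *H2-Aa*, *H2-Ab1* and *H2-Eb1*, the peptide-exchange chains *H2-DMa*, *H2-DMb1* and *H2-Oa*, and the lysosomal enzymes *Ctss* and *Ifi30*. They were chosen by name, with no threshold on their values, although earlier results of these data were known. All 10 had at least 1 probe among the 20144 genes that could be named on the arrays. RNA came from J774.1, a mouse monocyte-macrophage cell line, after 4 hours with MG132, epoxomicin or ONX0914 at 1 μM, or with the solvent DMSO. MG132 is a peptide aldehyde, and epoxomicin and ONX0914 are peptide epoxyketones. All 3 inhibit the proteasome, and ONX0914 is described in the labels as directed at the β5 and β5i subunits. One treatment label reads ONX-0912, whereas the treatment protocol names ONX0914, and that array is called ONX0914 here. Each condition was measured on 1 single-color array, and all 4 arrays lay on 1 slide. No difference below therefore has a replicate check or a P value, and a difference between conditions cannot be told apart from one between cultures.

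MHC class II molecules carry peptides from the endosomal and lysosomal system to the cell surface, where CD4 T cells read them. The invariant chain guards the empty groove until lysosomal proteases cut it down, and H2-DM then exchanges the remaining fragment for a peptide. *Ciita* drives transcription of the class II chains, of *Cd74* and of the H2-DM genes without touching DNA itself, through RFX, NF-Y and CREB proteins bound to the X and Y boxes of the promoters. In macrophages, IFN-γ induces *Ciita* through factors that include Irf1, whereas cysteine proteases and the thiol reductase Ifi30 are abundant without it.

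In the mouse genome (GRCm38.p6), 6 of the 10 genes lie in the MHC on chromosome 17, between the start of *H2-Oa* at 34092379 and the end of *H2-Eb1* at 34316674. *Ciita* lies at chr16:10480014-10531064, *Ctss* at chr3:95526786-95556405 and *Ifi30* at chr8:70762773-70766663. Promoter windows from RefSeq, which reach from 250 bases before to 50 bases after a transcription start, were at hand for 7 of the genes. The windows come from the C57BL/6J reference, whereas J774 cells are of BALB/c origin. The letters GNAAC, as in an X box, followed on the strand of the gene by ATTGG, the Y box read in reverse, with the starts 28 to 40 bases apart, were found in 4 of these 7 genes. Among 32851 windows of 27025 mouse genes, 339 (1.032%) hold such a pair. The 4 stretches are shown because they carry letters as in the boxes that *Ciita* depends on, with the matched letters in capitals and 10 bases on each side.
H2-Oa, chr17:34092293-34092350, forward strand: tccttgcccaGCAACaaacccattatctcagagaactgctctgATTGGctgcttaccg
H2-DMb1, chr17:34153087-34153144, forward strand: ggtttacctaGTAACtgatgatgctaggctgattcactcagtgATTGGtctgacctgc
H2-Aa, chr17:34287857-34287914, reverse strand: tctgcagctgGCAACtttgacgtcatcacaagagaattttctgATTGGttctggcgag
H2-Eb1, chr17:34305766-34305822, forward strand: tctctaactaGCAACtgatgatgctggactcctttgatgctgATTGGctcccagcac

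The starts of the paired letters were 33 bases apart in *H2-Oa*, *H2-DMb1* and *H2-Aa* and 32 bases apart in *H2-Eb1*. The X letters began 76 bases before the start of transcription in *H2-Oa*, 94 in *H2-DMb1*, 81 in *H2-Aa* and 91 in *H2-Eb1*. *H2-DMb1* and *H2-Eb1* shared a run of 13 letters, aactgatgatgct, which begins with the last letters of the GNAAC match. The windows of *Ctss*, *Ifi30* and *H2-DMa*, which has 2 windows, held no such pair. Both windows of *H2-DMa*, chr17:34122582-34122881 and chr17:34125268-34125567, lie inside the annotated span of the gene, chr17:34119693-34139101. Whether other transcription starts of *H2-DMa* have such a pair was not tested. Searched singly on both strands, CCAAT was found in 5 of the 7 genes and in 37.41% of all windows, and it counts the same letters as the Y box of each pair. GCAAC, which overlaps the X letters, was found in 4 genes (*H2-Oa*, *H2-DMa*, *H2-Aa* and *H2-Eb1*) and in 35.21% of all windows, and TGACG, as in a CREB site, in *Ifi30* and *H2-Aa* and in 20.81%. Of the letters known from interferon-responsive promoters, TTCNNNGAA (GAS) was found in 0 of the 7 genes and in 8.298% of all windows, and GAAANNGAA (the core of an ISRE) in 1 gene, *Ctss*, and in 8.56% of all windows. A match of letters is a description and no measurement of binding.

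The authors deposited the processed signal of each spot, its brightness after background subtraction by the scanner software. An array held 43020 spots other than controls, of which 60.3% to 63.1% were well above background, and no spot was saturated. To compare arrays, the log2 of the 75th percentile of an array, a signal between 1448 and 1669, was subtracted from the log2 signal. Differences below are on this scale, inhibitor minus DMSO. The value after ± is the error the software assigns to both spots, which covers the reading of single arrays only. For bright spots this error is nearly a fixed share of the signal, as with 3374 on 33739.6 for *Cd74* in DMSO. It is therefore an estimate of the software and no measured spread. The median SD between spots of one probe was smaller, 0.056 to 0.061 on the log2 scale. Of 8 macrophage markers, 7 had a named probe, and these 7, among them *Csf1r*, *Adgre1* and *Itgam*, were well above background on every array. Their summed signal lay between 199123 and 245169, most of it from *Csf1r*, at 210824 in DMSO, whereas *Adgre1* read 440. The sums given here were not scaled between arrays. Of 4 B cell markers, 3 (*Cd79a*, *Ms4a1* and *Pax5*) were not well above background on any array, and the summed signal was 54.8 to 71.4. Of 5 dendritic cell markers, *Flt3* and *Xcr1* were not well above background, and the sum was 194 to 311. Among the T cell markers *Cd3e* and *Cd4* were well above background and *Cd3d* and *Cd3g* were not, with a sum of 4481 to 5322. *Col1a2* was the only 1 of 3 fibroblast markers well above background, with a sum of 79.0 to 107.4.

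In the presence of DMSO, J774.1 cells gave signals above background for most of the class II pathway but not for the chains of I-A. The probes of 8 genes were well above background on all 4 arrays, and those of *H2-Aa* and *H2-Ab1*, which encode the α and β chains of I-A, on none. MG132 and epoxomicin arrays were lower than DMSO for *H2-DMa*, *H2-DMb1* and *Ifi30*, by 0.78 to 1.04 on the log2 scale. In such bulk RNA, fewer cells with a transcript and less transcript per cell cannot be told apart. The other 5 measured genes, *Ciita* and *Cd74* among them, differed from DMSO by at most 0.35 with any inhibitor.

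**Figure D1:**
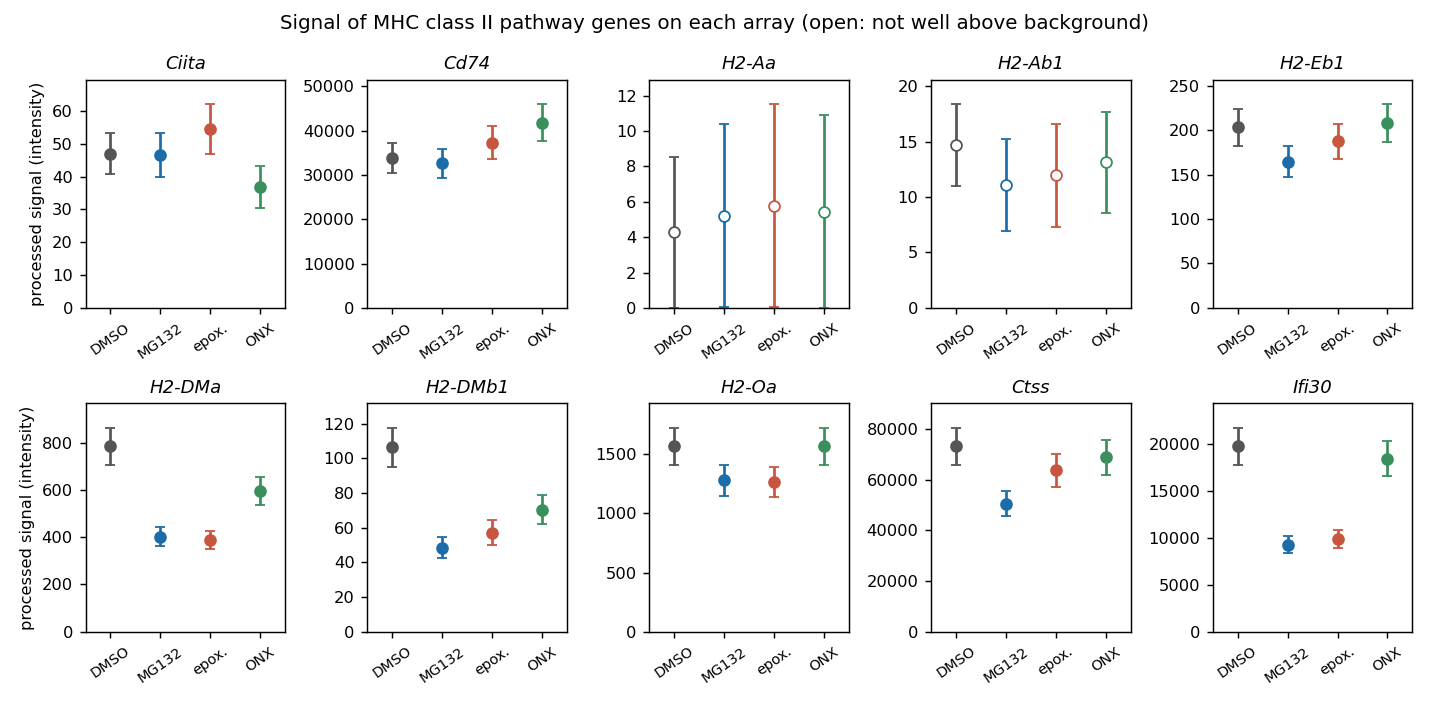
Processed signal (intensity, linear axis from 0) of the 10 MHC class II pathway genes on the 4 arrays; each point is 1 array, bars are the error the scanner software assigns to that signal, and open points were not well above background. *H2-DMa*, *H2-DMb1* and *Ifi30* are highest with DMSO and low with MG132 and epoxomicin, whereas *H2-Aa* and *H2-Ab1* are open on every array.

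*Ciita*, the master switch of class II transcription, was faint, with a signal of 47.0 in DMSO. It was 46.5 in MG132, 54.4 in epoxomicin and 36.9 in ONX0914. The scaled difference from DMSO was 0.17 ± 0.28 for MG132, 0.19 ± 0.28 for epoxomicin and -0.31 ± 0.32 for ONX0914. In falling order of scaled level the arrays were epoxomicin, MG132, DMSO and ONX0914, and no neighbors in that order differed by more than the reading error. The sign with MG132 turned without scaling between arrays (-0.017), and the sign with ONX0914 turned under normexp, a model-based background correction (0.17).

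*Cd74*, which encodes the invariant chain that escorts class II chains out of the endoplasmic reticulum and whose gene lies on chromosome 18, gave a bright signal of 33739.6 in DMSO, and of 32649, 37253 and 41799.7 after MG132, epoxomicin and ONX0914. The ONX0914 array was the highest and differed from DMSO by 0.35 ± 0.20, a 1.27-fold higher level. The other differences were 0.14 ± 0.20 with MG132, which became -0.047 without scaling, and 0.12 ± 0.20 with epoxomicin. DMSO, epoxomicin and MG132 were neighbors that did not differ beyond the reading error, and ONX0914 lay 0.21 ± 0.20 above MG132.

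The classical chains bind and present the peptide. *H2-Aa*, the α chain of I-A, had a signal of 4.28 in DMSO and of 5.196, 5.77 and 5.44 in MG132, epoxomicin and ONX0914, each about as large as its own error. *H2-Ab1*, its β chain, had a brighter probe at 14.7 in DMSO, 11.1 in MG132, 11.96 in epoxomicin and 13.1 in ONX0914. Its other probe gave 14.4, 6.40, 7.12 and 10.9 in the same order. All 3 probes lay below the lowest signal called well above background on each array, which was 14.703 with DMSO and 17.8 to 20.3 with the inhibitors. For these genes no difference could be given in either direction, and a signal at background does not show that the transcript was absent. Whether the probes match the alleles of J774 cells, which are of BALB/c origin, was not tested.

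*H2-Eb1*, the β chain of I-E, was measured on every array, at 203 in DMSO, 164 in MG132, 187 in epoxomicin and 208 in ONX0914. The 4 values stayed close together, with differences from DMSO of -0.12 ± 0.21 for MG132, -0.14 ± 0.21 for epoxomicin and 0.071 ± 0.21 for ONX0914, each smaller than its reading error. The order of scaled levels was ONX0914, DMSO, MG132 and epoxomicin, with no neighbors apart by more than that error. *H2-Eb2*, a further β chain from the list of other class II chains, was not well above background on any array, and *H2-Ea* had no named probe, so the partner of *H2-Eb1* was not analysed here.

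*H2-DMa* and *H2-DMb1* encode both chains of H2-DM, which removes the invariant chain fragment and edits the bound peptides. *H2-DMa* had a signal of 785 in DMSO, which compares with 403 in MG132, 388 in epoxomicin and 597 in ONX0914. The DMSO array was the highest, and every neighboring pair in the order DMSO, ONX0914, MG132 and epoxomicin lay further apart than the reading error. Relative to DMSO, *H2-DMa* differed by -0.78 ± 0.20 after MG132, by -1.04 ± 0.20 after epoxomicin (2.05-fold lower) and by -0.36 ± 0.20 after ONX0914.

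*H2-DMb1* showed the same order of DMSO above ONX0914 above the other inhibitors, with signals of 106 in DMSO, 48.5 in MG132, 57.1 in epoxomicin and 70.4 in ONX0914. It differed from DMSO by -0.95 ± 0.24 in MG132, a 1.93-fold lower level, by -0.92 ± 0.24 in epoxomicin and by -0.56 ± 0.23 in ONX0914. MG132 and epoxomicin did not differ beyond the reading error (0.030 ± 0.26). Because the signal is faint, these sizes depended on the background correction, and under normexp they were -0.33, -0.25 and -0.081. *H2-DMb2*, a close relative of *H2-DMb1*, was not well above background on any array, and whether either probe also detects the other transcript was not tested.

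*H2-Oa* encodes the α chain of H2-O, which restrains H2-DM and is known mainly from B cells. It read 1566 in DMSO, 1279 in MG132, 1268 in epoxomicin and 1567 in ONX0914, so that the DMSO and ONX0914 arrays were nearly equal. Set against DMSO, *H2-Oa* differed by -0.11 ± 0.20 in MG132, -0.32 ± 0.20 in epoxomicin and 0.040 ± 0.20 in ONX0914, the last of which was -0.008 when scaled to the detected probes. In the order ONX0914, DMSO, MG132 and epoxomicin, only the last step, of 0.22 ± 0.20, was larger than the reading error. Its partner chain *H2-Ob*, named here after its values were seen, gave 244 in DMSO, 183 in MG132, 154 in epoxomicin and 207 in ONX0914. *H2-Ob* differed from DMSO by -0.22 ± 0.21, -0.68 ± 0.21 and -0.20 ± 0.21 in that order, the epoxomicin array again being the lowest, although with the mean over its probes the values were -0.009 for MG132 and -0.30 for epoxomicin.

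The lysosomal enzymes prepare both the invariant chain and the antigens. *Ctss*, the cathepsin that cuts the invariant chain in macrophages and dendritic cells, had a signal of 73093.5 in DMSO, 50479 in MG132, 63586 in epoxomicin and 68817 in ONX0914. The MG132 array was the lowest, at -0.35 ± 0.20 from DMSO, followed by epoxomicin at -0.22 ± 0.20 and ONX0914 at -0.048 ± 0.20. No neighbors in this order differed beyond the reading error.

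*Ifi30*, also called GILT, reduces disulfide bonds of antigens in the lysosome. It read 19762 in DMSO, 9289 in MG132, 9891 in epoxomicin and 18456 in ONX0914. The arrays fell into pairs, with DMSO and ONX0914 close to each other and MG132 and epoxomicin close to each other. Relative to DMSO, the difference of *Ifi30* was -0.90 ± 0.20 for MG132, a 1.87-fold lower level, and -1.02 ± 0.20 for epoxomicin, a 2.03-fold lower level. For ONX0914 it was -0.060 ± 0.20.

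**Figure D2:**
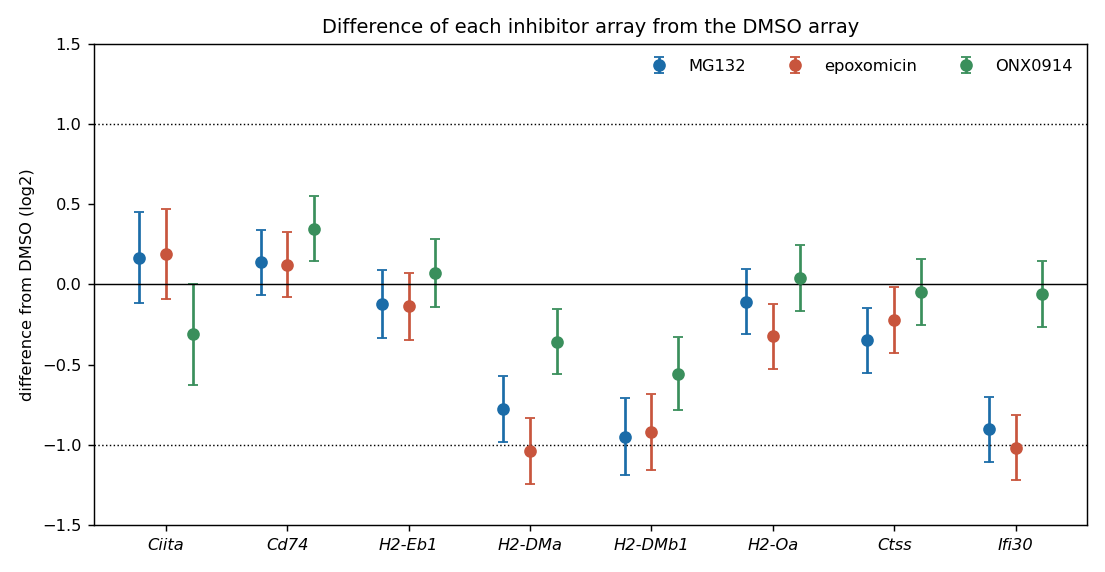
Difference of each inhibitor array from the DMSO array (log2, vertical axis) for the 8 genes well above background; points are single differences, bars are the combined reading error of both spots, and dotted lines mark a 2-fold difference. *H2-DMa* and *Ifi30* with epoxomicin lie past the lower line, at -1.04 and -1.02, and *Ciita* lies between -0.31 and 0.19.

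At a 2-fold threshold, 0 of the 8 measured genes were higher and 0 lower with MG132, where 7.24% of 13776 genes compared were higher and 3.69% lower. With epoxomicin, 0 were higher and 2 lower, *H2-DMa* and *Ifi30*, against 8.49% and 4.41% of 13870 genes. With ONX0914, 0 were higher and 0 lower, against 3.27% and 1.4% of 13792 genes. The counts depend on the processing. Without scaling, 2 of the 8 genes were at least 2-fold lower with MG132, where 5.32% of all genes were higher and 6.50% lower. A shift to the median also gave 2 of 8, with 6.07% higher and 5.01% lower. Quantile normalization gave 1 of 8, with 6.62% higher and 4.19% lower. With epoxomicin, 1 of 8 was lower under normexp, under quantile normalization and without scaling. Over all genes, 2.74%, 4.77% and 4.16% were lower with epoxomicin in these settings. The authors' value table, which differs in its scaling and holds no bounds, gave 3.72% higher and 2.57% lower over all genes with ONX0914. At a 1.5-fold threshold, added after the values were seen, 3 of 8 genes were lower with MG132, where the background was 12.9%, and 3 of 8 with epoxomicin, where it was 14.3%. With ONX0914 the count was 0 of 8 against 5.17%. The 3 genes were *H2-DMa*, *H2-DMb1* and *Ifi30* with both inhibitors, but under normexp *H2-DMb1*, at -0.33 and -0.25, fell short of 1.5-fold with both.

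The median difference over the 8 genes was -0.235 for MG132, -0.273 for epoxomicin and -0.054 for ONX0914. The medians over all genes compared were -0.023, -0.038 and -0.006. Of the 8 genes, 6 were below 0 for MG132, 6 for epoxomicin and 5 for ONX0914. The share of all genes below 0 was at most 63.2%, 62.7% and 56.4% in the same order. These are the shares below the lowest of the 8 genes that lay above 0. The exact shares were not computed, and the medians over all genes also lay below 0. With 8 genes, these counts are not read as a result about them. Among all genes, 4.38% were lower than *H2-DMb1* with MG132, 4.97% lower than *Ifi30* and 7.40% lower than *H2-DMa*. With epoxomicin these shares were 5.59% for *H2-DMb1*, 4.17% for *Ifi30* and 3.96% for *H2-DMa*. With ONX0914, 5.79% of genes were lower than *H2-DMb1* and 13.2% lower than *H2-DMa*, but 42.1% lower than *Ifi30*. *Ciita* and *Cd74* lay inside the bulk with MG132 and epoxomicin, with 62.7% to 66.9% of genes below them. With ONX0914, 85.3% of genes were below *Cd74* and 15.7% below *Ciita*.

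**Figure D3:**
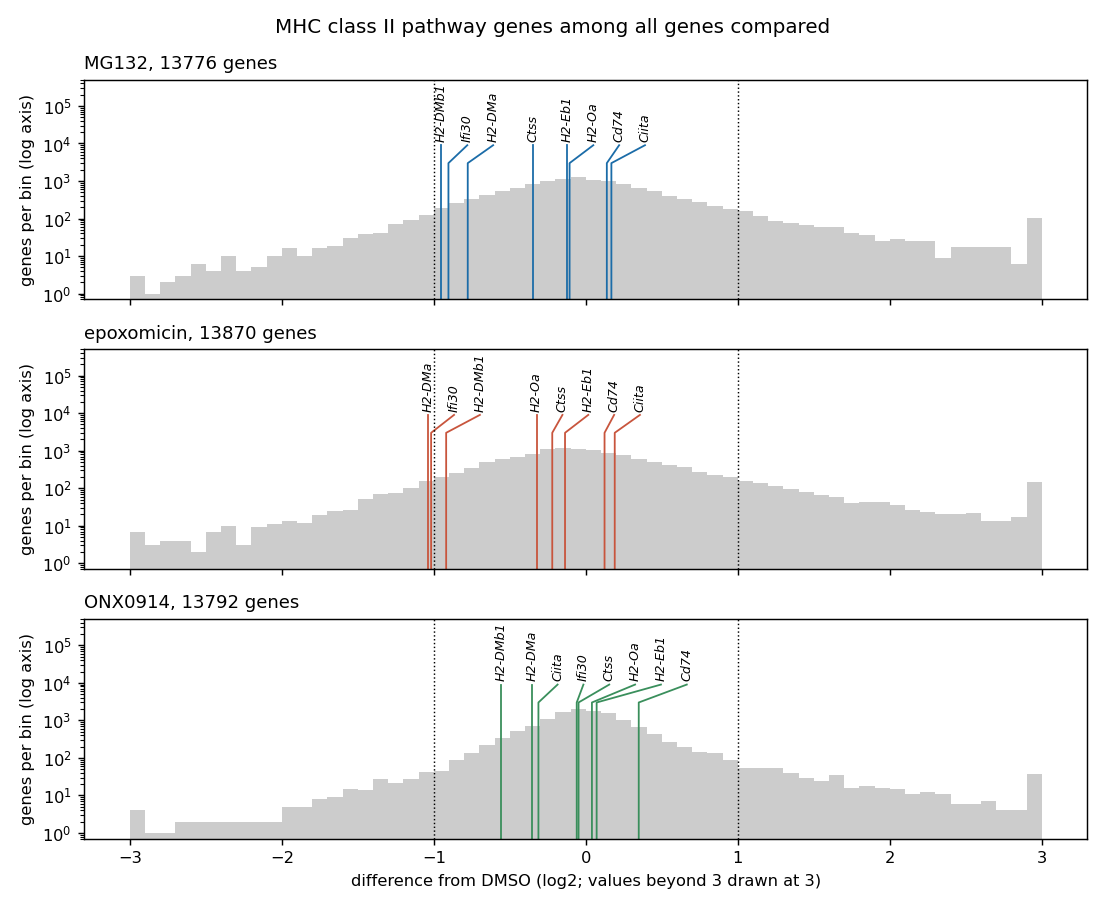
Number of genes per bin of 0.1 (log axis) against the difference from DMSO (log2) for each inhibitor, with colored lines at the 8 class II pathway genes and dotted lines at a 2-fold difference. *H2-DMa*, *H2-DMb1* and *Ifi30* lie in the lower flank with MG132 and epoxomicin, while *Ifi30* is near the center with ONX0914.

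The inhibitors were given at the same dose and for the same time, and the 8 genes were set against each other between them without a test. Whether that dose inhibited the proteasome to the same extent with each of them was not tested. Epoxomicin and MG132 arrays differed by -0.26 to 0.13 in these genes, the lowest being *H2-DMa* at -0.26 ± 0.20. Between the 2 epoxyketones the largest gap was that of *Ifi30*, which was 0.96 ± 0.20 higher with ONX0914 than with epoxomicin, a 1.94-fold higher level. *H2-DMa* was 0.68 ± 0.20 higher and *H2-Oa* 0.36 ± 0.20 higher with ONX0914, whereas *Ciita* differed by -0.50 ± 0.32. Under normexp, *Ciita* lay 0.17 from DMSO in ONX0914 and 0.30 in epoxomicin, a gap within that error. Against MG132, ONX0914 was higher in *Ifi30* by 0.845 ± 0.20, in *H2-DMa* by 0.42 ± 0.20 and in *H2-DMb1* by 0.39 ± 0.25. It was also higher in *Ctss* by 0.30 ± 0.20 and in *Cd74* by 0.21 ± 0.20, whereas *Ciita* differed by -0.48 ± 0.33. Under normexp, *H2-DMb1* lay -0.33 from DMSO in MG132 and -0.081 in ONX0914, a gap of about its error. *Ciita* lay 0.063 and 0.17 from DMSO there, a gap within its error. The medians over all genes in the 3 contrasts between inhibitors were 0.007 to 0.044. With 1 array per inhibitor, these gaps cannot be told apart from differences between cultures or arrays.

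Transcripts of the proteins that bring the *Ciita* product to the promoters were all measured, with 7 of 7 genes well above background. *Rfx5*, the DNA-binding subunit of RFX, was faint at 28.7 in DMSO, 52.3 in MG132, 50.9 in epoxomicin and 53.8 in ONX0914. It was higher on every inhibitor array, by 1.05 ± 0.27, 0.81 and 0.95 ± 0.27, but under normexp by 0.56, 0.27 and 0.44. *Rfxap*, a further RFX subunit, differed by -0.40 in MG132, 0.045 in epoxomicin and -0.47 in ONX0914. For *Rfxank*, the third subunit, these values were -0.033, -0.13 and -0.040. The median of the 7 was 0.20 for MG132, 0.32 for epoxomicin and 0.19 for ONX0914. For MG132 it was 0.095 after a shift to the median and 0.011 without scaling. *Rfx5* with MG132 was the only value past 2-fold, where 7.24% of all genes were at least 2-fold higher. It missed 2-fold under quantile normalization (0.954), after a shift to the median (0.952) and under normexp. It also missed 2-fold without scaling (0.87) and with the mean over its probes (0.867).

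Several regulators upstream of *Ciita* differed more from DMSO than *Ciita* itself. Of 11 genes, all well above background, 3 lay above the upper 2-fold line and 2 below the lower one with both MG132 and epoxomicin, and 2 above and 0 below with ONX0914, to be read against the background shares given above. *Irf1*, which binds the IFN-γ–responsive promoter of *Ciita*, gave 9157 in DMSO, 45798 in MG132, 64688 in epoxomicin and 55069.6 in ONX0914, differences of 2.51 ± 0.20, 2.80 and 2.63 ± 0.20.

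*Socs1*, which restrains signaling from the IFN-γ receptor, was at 316 in DMSO, 2311 in MG132, 3236 in epoxomicin and 6654 in ONX0914, with differences of 3.055, 3.34 and 4.435 that were the largest on this list. *Irf8*, a factor of the macrophage lineage, differed by 1.20, 1.54 and 0.79. The receptor chains themselves were lower, *Ifngr2* with signals of 4407, 1181, 922 and 2527 and differences of -1.72, -2.28 and -0.76, and *Ifngr1* with differences of -1.15, -1.13 and -0.69. *Prdm1*, a repressor of *Ciita*, was faint and differed by 0.11, 0.26 and 0.30 with errors of about 0.26 to 0.27 for MG132 and ONX0914. The median over the 11 genes was 0.045 with MG132, which was -0.055 after a shift to the median and -0.14 without scaling, 0.26 with epoxomicin and 0.080 with ONX0914.

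Class I genes have a transactivator of their own, *Nlrc5*, a relative of *Ciita*. *Nlrc5* had a signal of 2865 in DMSO, 13115 in MG132, 16796 in epoxomicin and 8191 in ONX0914. Its differences of 2.38 ± 0.20, 2.53 and 1.555 ± 0.20 stand beside those of *Ciita*, 0.17, 0.19 and -0.31. With the mean over the probes of *Nlrc5* they were 1.98, 2.12 and 1.26. The *Ciita* signal was far fainter, at 47.0 in DMSO, so the 2 genes were not read equally well. *Tap1*, the peptide transporter of the class I pathway, gave 1575, 5424, 6274 and 3760.5 in the same order, differences of 1.97, 1.97 and 1.29. Of the 13 class I genes, these were the 2 at least 2-fold higher with each inhibitor, where 7.24%, 8.49% and 3.27% of all genes were higher, and 0 were lower, where 3.69%, 4.41% and 1.4% were. The median over the 13 was 0.27, 0.25 and 0.215 for MG132, epoxomicin and ONX0914, and for MG132 it was 0.17 after a shift to the median and 0.085 without scaling. Beside these values, the median over the 8 class II pathway genes was -0.235, -0.273 and -0.054, and for MG132 -0.336 and -0.420 in those other settings. All these comparisons share the DMSO array.

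**Figure D4:**
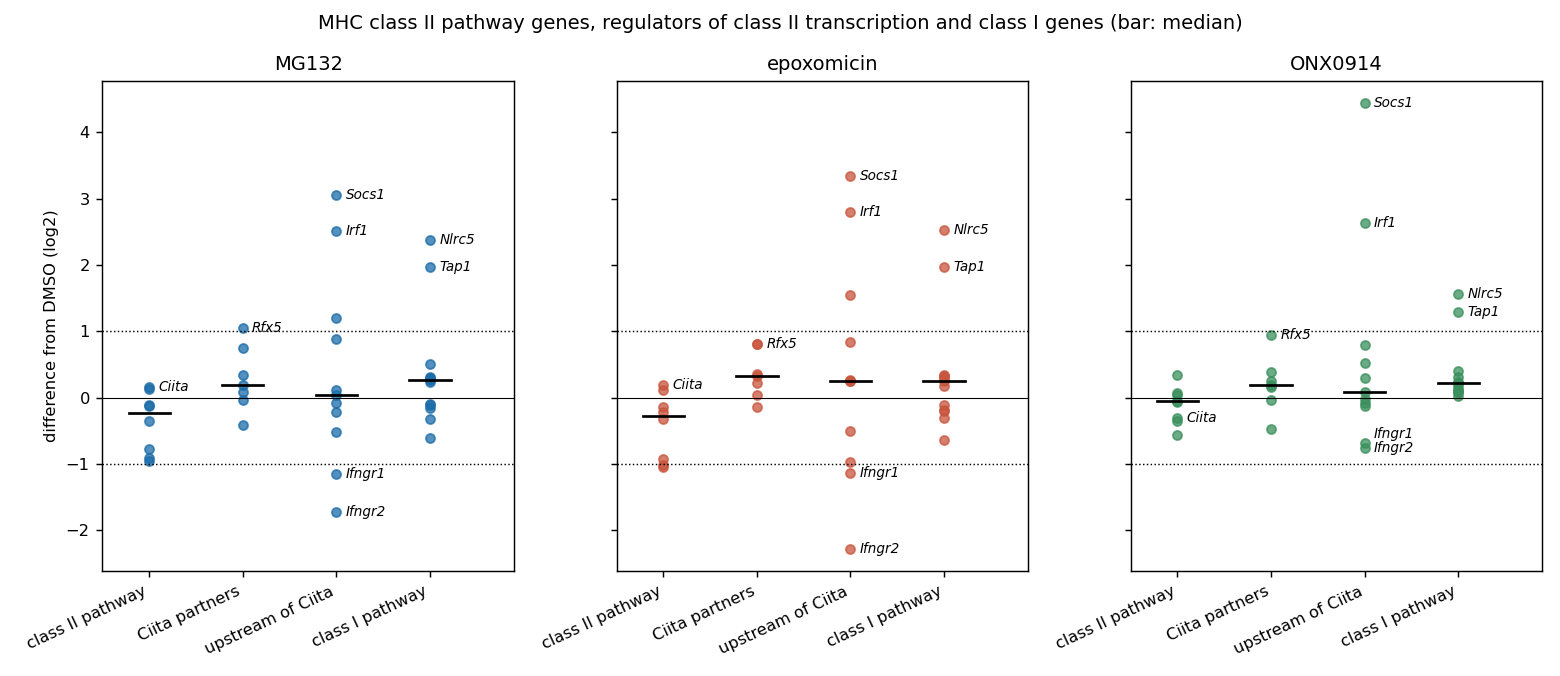
Difference from DMSO (log2, vertical axis) for each measured gene of the class II pathway, the *Ciita* partners, the regulators upstream of *Ciita* and the class I pathway, with 1 panel per inhibitor; points are genes, bars are list medians and dotted lines mark a 2-fold difference. *Irf1*, *Socs1* and *Nlrc5* lie above the upper line with all inhibitors, while *Ciita* lies between -0.31 and 0.19.

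Other lysosomal genes were close to DMSO. The differences of 8 genes from *Ctsb* to *Sppl2a* ranged from -0.275 to 0.205 (MG132), from -0.32 to 0.10 (epoxomicin) and from -0.035 to 0.14 (ONX0914). Of these 8, 0 were at least 1.5-fold lower with any inhibitor. Among all genes, 12.9%, 14.3% and 5.17% were at least 1.5-fold lower with MG132, epoxomicin and ONX0914, so a count of 0 of 8 alone says little. Their medians were -0.12, -0.11 and 0.057. With MG132 the median was -0.22 after a shift to the median and -0.31 without scaling, and with ONX0914 it was 0.010 when scaled to the detected probes. Of 6 genes listed for surface turnover and as tetraspanin partners of class II, *March1* and *March8* had no named probe. The 4 measured were *Cd9*, *Cd63*, *Cd82* and *Mif*. Their medians were -0.10 and -0.26 with MG132 and epoxomicin and 0.036 with ONX0914, which was -0.003 without scaling. With MG132 this median was -0.20 after a shift to the median and -0.29 without scaling. With MG132, epoxomicin and ONX0914, *Cd9* differed by -0.64, -0.88 and -0.067 and *Mif* by -0.46, -0.50 and -0.20. *Cd63* differed by 0.25, -0.021 and 0.19 and *Cd82* by 0.26, 0.11 and 0.14. Some macrophage markers differed on the same arrays. *Lyz2*, the lysozyme of macrophages, differed by -0.60, -1.01 and 0.14 in that order, and *Mertk*, a receptor for dying cells, by 1.03, 0.65 and 0.54. The median of the 7 macrophage markers was -0.14, -0.048 and 0.044. *Itgax*, on the dendritic cell list and also known from macrophages, differed by 1.00, 1.06 and 0.43. The part of such shifts in the values of *H2-DMa*, *H2-DMb1* and *Ifi30* was not tested.

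The genes with the 3 differences nearest to those of *Ciita*, by Euclidean distance over the 3 inhibitors among 12728 genes well above background on every array, were *Pinx1* (0.034), *Fam171b* (0.042), *Brsk1* (0.057), *Stra8* (0.063) and *Akr1c6* (0.070). For *Cd74* they were *Foxl2* (0.032), *Zfp647* (0.038), *Scn4a* (0.038), *Lrrc19* (0.041) and *Tfpi* (0.046). None of these is among the lists above, and these distances are smaller than the reading error of a single difference.

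**Figure D5:**
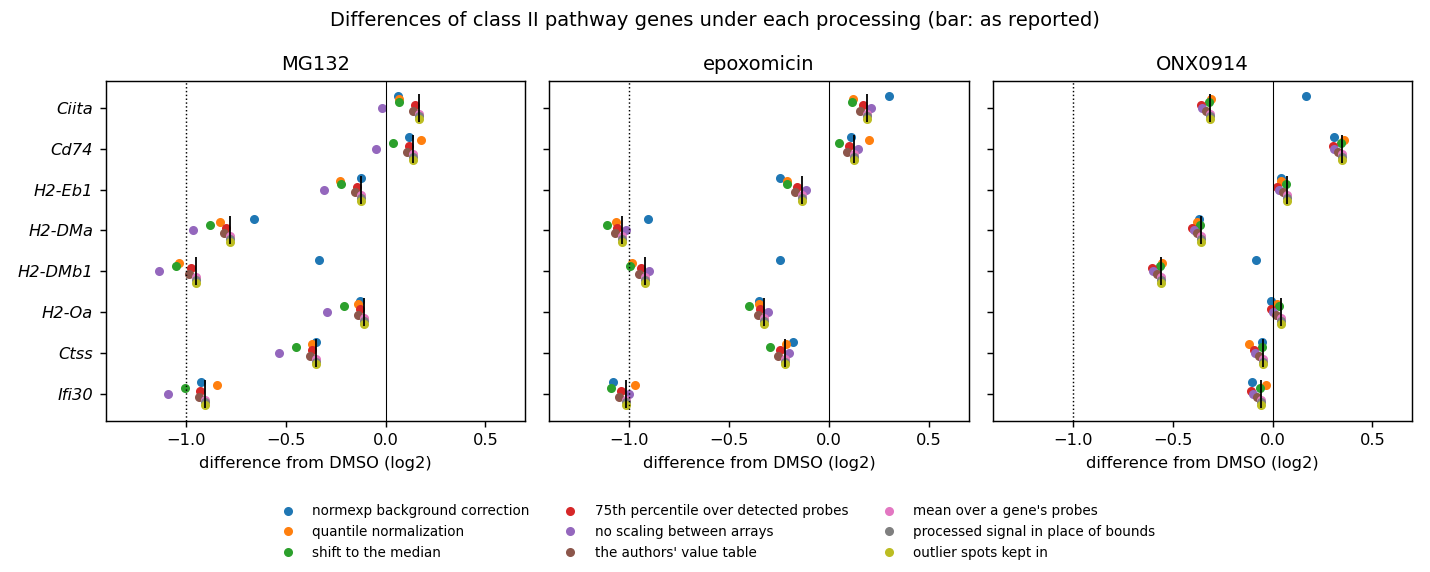
Difference from DMSO (log2, horizontal axis) of the 8 class II pathway genes with each inhibitor under 9 alternative ways of processing (colored points, 3 of which coincide with the reported values because each gene has 1 probe with 1 spot) and as reported (black bars); the dotted line marks a 2-fold lower level. *H2-DMb1* lies nearer to 0 under normexp, at -0.33 with MG132, and the points of *H2-DMa* and *Ifi30* with MG132 and epoxomicin stay below -0.60.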

How the data were processed

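Scanner output that the authors deposited (Feature Extraction 10.7.1.1) holds the raw and the background-subtracted intensity of every spot, beside the software's calls of 0 or 1. A further deposited table holds log2 values from GeneSpring, centered on the median of each probe across arrays, and was used as an alternative. The Methods name a human design, whereas the file headers describe a mouse design, so probes were named by matching transcript accessions to RefSeq (GRCm38.p6). Of 39429 probes, 26581 (67.4%) received a symbol, 11 of them for the class II pathway genes.

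Control spots were left out, the 75th percentile of each array was subtracted from log2 of the processed signal, and spots marked as outliers (159 to 194 per array) were dropped. The spots of a probe were averaged. The probe with the highest mean stood for a gene. Genes entered a comparison when either array had them well above background, and a bound (the higher of its own signal and the lowest signal well above background) replaced a signal that was not. Genes were counted at a 2-fold threshold. With 1 array per condition no test was run, and the number of arrays limits the precision.

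The genes and lists were chosen with earlier results of these data known. Named are the 10 genes, selected regulators, each gene of the other lists past 2-fold with any inhibitor, and the 5 genes nearest to *Ciita* and to *Cd74*. Other genes were named after their values were seen. The lists hold other class II chains, lysosomal genes, *Ciita* partners, upstream regulators, surface turnover genes, class I genes and markers of 5 cell types. Some genes of these lists are not reported here. *H2-Ea*, *H2-Ea-ps*, *March1*, *March8* and *Cd68* had no named probe. Alternatives were normexp (offset 50), quantile normalization, other scalings or none, the authors' table, the mean over probes, no bounds, other thresholds and other filters. The 1.5-fold threshold and keeping outlier spots in were chosen after seeing the data. Python 3.11.15 with numpy 2.4.6 and pandas 2.3.3, and R 4.3.3 with limma 3.58.1, were used, and the calculations were tested on simulated data.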

Additional observations from a re-analysis of the deposited data

How the results depend on the processing

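With 1 array per condition no replicate could be left out. No paired analysis was possible because each condition had 1 array. A change of a difference by 0.0867 or more was counted as a move, which is the largest median SD between spots of one probe times the square root of 2. Of 24 differences, 9 moved under normexp, 8 after a shift to the median, 8 without scaling and 2 under quantile normalization, and 0 with the percentile over detected probes or the authors' table. The mean over probes, signals in place of bounds and outlier spots kept in could not move them, because each measured gene has 1 probe with 1 spot, well above background on all arrays. The count of genes at least 2-fold lower with epoxomicin was 2 as reported, 1 under normexp, 1 under quantile normalization and 1 without scaling. At a 4-fold threshold it was 0. The share of all genes past 4-fold was not computed, so that count is not read as a result about these genes. With MG132 it was 0 as reported, 1 under quantile normalization, 2 after a shift to the median, 2 without scaling and 3 at the 1.5-fold threshold chosen after seeing the data. The median over the 8 genes with MG132 was -0.235 as reported, -0.336 after a shift to the median and -0.420 without scaling. These settings also moved the median over all genes with MG132, from -0.023 to -0.122 and -0.203, and the shift to the median moved that with epoxomicin from -0.038 to -0.112. *H2-DMa* with epoxomicin lay between -1.11 and -0.90 and *Ifi30* between -1.09 and -0.97 over the alternatives that could move them. *H2-DMa* with MG132 lay between -0.96 and -0.66. The faint signals of *Ciita* and *H2-DMb1* and the absence of a usable signal for *H2-Aa* and *H2-Ab1* limit what these arrays show of them.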
